A study of Mus musculus with 15 samples.

Results

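The genes described here encode 10 enzymes that build purine and pyrimidine nucleotides from small precursors: Prps1, Ppat, Gart, Pfas, Paics, Atic, Impdh1, Impdh2, Cad and Umps. They were chosen by name for their place in the pathway, with earlier results of these data known. All 10 were found among the 11551 genes listed in any of the 4 deposited expression tables. The symbol Ppat stood on 2 gene identifiers in those tables. ENSMUSG00000029246 is Ppat itself, whereas the reference annotation names ENSMUSG00000001755 as Coasy, an enzyme of coenzyme A synthesis, so that identifier was kept apart from the 10.

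RNA was sequenced in paired ends from 15 libraries of mouse Abelson pre-B cells, early B cells made to grow without end by the viral kinase v-Abl. All cells, controls included, had spent 48 h in imatinib, a drug that blocks Abl kinases. The 5 groups held 3 libraries each. Art_shBCLAF1 were Art -/- cells (Artemis-deficient, lacking a nuclease needed to join broken antigen-receptor genes) with a short hairpin RNA labelled shBCLAF1, and Art were Art -/- cells with no hairpin. Rag_SPIC_DOX_shBCLAF1 were Rag -/- cells, which cannot cut those genes, with a tet-controlled SPIC construct, doxycycline and shBCLAF1. Rag_SPIC_DOX were the same cells with doxycycline and no hairpin, and Rag_SPIC_noDOX had neither. No label gives a control hairpin, a clone number or separate cultures for the libraries of a group, so each p-value reflects the scatter of these libraries alone, which may be technical.

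De novo purine synthesis assembles the ring on phosphoribosyl pyrophosphate (PRPP), the activated ribose made by PRPS1. PPAT takes the committed step, GART, PFAS, PAICS and ATIC carry the ring on to inosine monophosphate (IMP), and IMPDH1 and IMPDH2 turn IMP towards guanine nucleotides. Pyrimidine synthesis is opened by CAD, which joins several enzymes in a single chain, and closed by UMPS, which yields uridine monophosphate. Proliferating lymphoid cells draw heavily on these routes, and the transcription factor MYC is a textbook activator of many of the genes.

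Promoter windows from 250 bases before to 50 bases after each RefSeq start (build GRCm38.p6) were found for 9 of the 10 genes, with 2 windows for Impdh1, and Pfas had no entry. The E-box letters CACGTG, which MYC with its partner MAX can bind, were searched on both strands and stood in 3 of the 9 genes, Paics, Atic and Impdh2. The same letters occur in 7.15% of all 32851 windows. In Atic they begin 7 bases before the start, in Impdh2 110 bases before it and in Paics 203 bases before it. The letters GAGGAA, an ETS-factor core of the kind bound by SPIC and PU.1, were found in Atic, Paics and Gart, against 28.3% of all windows. The letters CCAAT stood in 5 of the 9 genes, against 37.4% of all windows. The 3 windows with the E-box letters are printed 5′ to 3′ with those letters in capitals, followed by the more upstream of the windows of Impdh1, the gene whose RNA levels ran against the rest. They lie at chr1:71556906-71557205 (plus strand) for Atic, chr5:76951052-76951351 (plus) for Paics, chr9:108560186-108560485 (plus) for Impdh2 and chr6:29216315-29216614 (minus) for Impdh1. A match is a run of letters and not a measured binding site.
Atic: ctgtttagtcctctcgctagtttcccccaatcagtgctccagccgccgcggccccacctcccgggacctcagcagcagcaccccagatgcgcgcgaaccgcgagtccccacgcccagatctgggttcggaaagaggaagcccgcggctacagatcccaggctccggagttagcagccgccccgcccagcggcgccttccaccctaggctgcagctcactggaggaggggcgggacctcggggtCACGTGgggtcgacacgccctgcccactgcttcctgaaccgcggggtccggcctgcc
Paics: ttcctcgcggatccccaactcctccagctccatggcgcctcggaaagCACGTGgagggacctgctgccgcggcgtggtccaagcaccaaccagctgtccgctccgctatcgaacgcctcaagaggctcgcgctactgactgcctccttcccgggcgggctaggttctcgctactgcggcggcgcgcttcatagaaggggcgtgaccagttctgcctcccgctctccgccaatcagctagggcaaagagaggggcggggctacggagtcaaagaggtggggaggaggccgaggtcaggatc
Impdh2: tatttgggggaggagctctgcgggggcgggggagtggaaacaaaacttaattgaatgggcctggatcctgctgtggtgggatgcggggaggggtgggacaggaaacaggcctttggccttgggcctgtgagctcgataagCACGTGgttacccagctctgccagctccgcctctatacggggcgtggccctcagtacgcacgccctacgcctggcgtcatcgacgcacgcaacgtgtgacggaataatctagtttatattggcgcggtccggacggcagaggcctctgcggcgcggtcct
Impdh1: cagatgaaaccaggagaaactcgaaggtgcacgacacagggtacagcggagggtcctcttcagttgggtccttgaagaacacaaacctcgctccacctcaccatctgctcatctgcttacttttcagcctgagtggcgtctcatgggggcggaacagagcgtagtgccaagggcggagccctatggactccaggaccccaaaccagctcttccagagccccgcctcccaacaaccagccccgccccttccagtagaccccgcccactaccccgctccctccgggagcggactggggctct

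Read depth, as effective library size, lay between 17.24 and 27.1 M reads in 14 libraries and was 5.81 M in Art replicate 3, in which 145 genes had 0 reads against 19 to 56 elsewhere. Over all genes, the median size of the difference of that library from the mean of Art replicates 1 and 2 was 0.59 log2 units, and the median difference between those 2 was 0.08. The mRNA of Bclaf1 was not lower under the hairpin label, at 8.29, 8.35 and 8.32 log2 CPM (reads scaled by depth, on a log2 scale) in Art_shBCLAF1 against 7.81, 7.75 and 6.41 in Art. It was 7.99, 8.05 and 8.10 in Rag_SPIC_DOX_shBCLAF1 against 7.76, 7.69 and 7.73 in Rag_SPIC_DOX. Bclaf1 passed as higher in this Rag -/- pair (log2 fold change 0.32, SE 0.06, limma adjusted p 0.00537). Its change in the Art -/- pair did not pass (0.99, SE 0.37, limma adjusted p 0.0679). The groups are therefore called libraries labelled shBCLAF1. Spic was at 3.72, 4.59 and 4.31 log2 CPM in Rag_SPIC_DOX against 0.87, 0.18 and 1.41 in Rag_SPIC_noDOX. Spic was also higher under the hairpin label in both lines, at 4.47, 4.34 and 4.80 log2 CPM in Art_shBCLAF1 against 0.85, 0.32 and 0.16 in Art (log2 fold change 4.10, SE 0.24, limma adjusted p 0.000135). In Rag_SPIC_DOX_shBCLAF1 it was at 7.50, 7.43 and 7.44 log2 CPM against the Rag_SPIC_DOX values above (3.25, SE 0.21, limma adjusted p 0.00022). The hairpin label and the level of Spic therefore cannot be told apart in either label comparison. The pre-B identity was checked on a list of 12 markers, all of which were measured. The summed level of those markers was lowest in Art_shBCLAF1, at 6240 to 6630 CPM, against 12100 to 13900 CPM in Art. By limma, 8 of the 12 fell in that pair and 0 rose, against 24.1% of all genes lower. Rag1, a member of the list, was at 8.25 to 8.56 log2 CPM in Art_shBCLAF1 against 10.36 to 11.55 in Art. Pax5, Vpreb2, Cd24a and Rag2 overlapped between these groups. The sum was 7590 to 7900 CPM in Rag_SPIC_DOX_shBCLAF1 against 8020 to 11700 in Rag_SPIC_DOX. In that pair 3 markers rose and 4 fell, against 28.5% of all genes higher and 25.1% lower. The 7 measured myeloid markers of 10 summed to 81.6 to 99.8 CPM in Art_shBCLAF1 against 696 to 928 in Art, and to 59.8 to 65.0 CPM in Rag_SPIC_DOX_shBCLAF1 against 223 to 312 in Rag_SPIC_DOX. In Art and in Rag_SPIC_DOX that sum was mostly Itgam, whereas in Art_shBCLAF1 Fcgr3 was the highest, at 5.72 to 5.80 log2 CPM against 4.41 to 4.58 in Art. By limma, 2 of the 7 rose and 2 fell in Art_shBCLAF1 against Art, and all 7 fell in Rag_SPIC_DOX_shBCLAF1 against Rag_SPIC_DOX. Cd14 had 0 or 1 read in Rag_SPIC_DOX_shBCLAF1. Of 9 markers of T and NK cells, Cd3d, Cd3e and Cd3g among them, 6 were not listed in the tables, and the other 3 summed to 26.0 to 28.4 CPM in Art_shBCLAF1 against 124 to 154 in Art, and to 50.1 to 51.1 CPM in Rag_SPIC_DOX_shBCLAF1 against 63.9 to 70.6 in Rag_SPIC_DOX. Of these 3, 2 fell by limma in each label comparison. The part of other cell types in the results was not tested, and fewer cells of a type and less RNA per cell cannot be told apart in such bulk samples.

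The 9 genes other than Impdh1 mostly shared a pattern over the groups, but not in every comparison. Between Art and Rag_SPIC_noDOX, Cad and Atic were higher in Art without overlap. Umps, Gart, Paics, Pfas and Prps1 were lower in Art without overlap, although none of these differences passed in limma. The mean log2 CPM of the 9 genes other than Impdh1 was 7.36, 7.10 and 7.30 in Art_shBCLAF1, against 5.01, 5.09 and 4.84 in Art. It was 7.05, 7.14 and 7.11 in Rag_SPIC_DOX_shBCLAF1, against 6.71, 5.24 and 6.10 in Rag_SPIC_DOX and 5.19, 5.18 and 5.17 in Rag_SPIC_noDOX. All 6 libraries labelled shBCLAF1 were thus above the other 9, the Art and Rag_SPIC_noDOX libraries lay close together, and the Rag_SPIC_DOX libraries were spread between these levels. Summed over all 10 genes, the level was 1865.6, 1598.6 and 1825.9 CPM in Art_shBCLAF1 against 636.2, 645.5 and 741.6 CPM in Art. The sum was 1636.1, 1720.6 and 1716.8 CPM in Rag_SPIC_DOX_shBCLAF1, against 1294.9, 611.4 and 916.6 CPM in Rag_SPIC_DOX and 656.9, 637.8 and 632.9 CPM in Rag_SPIC_noDOX.

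**Figure D1:**
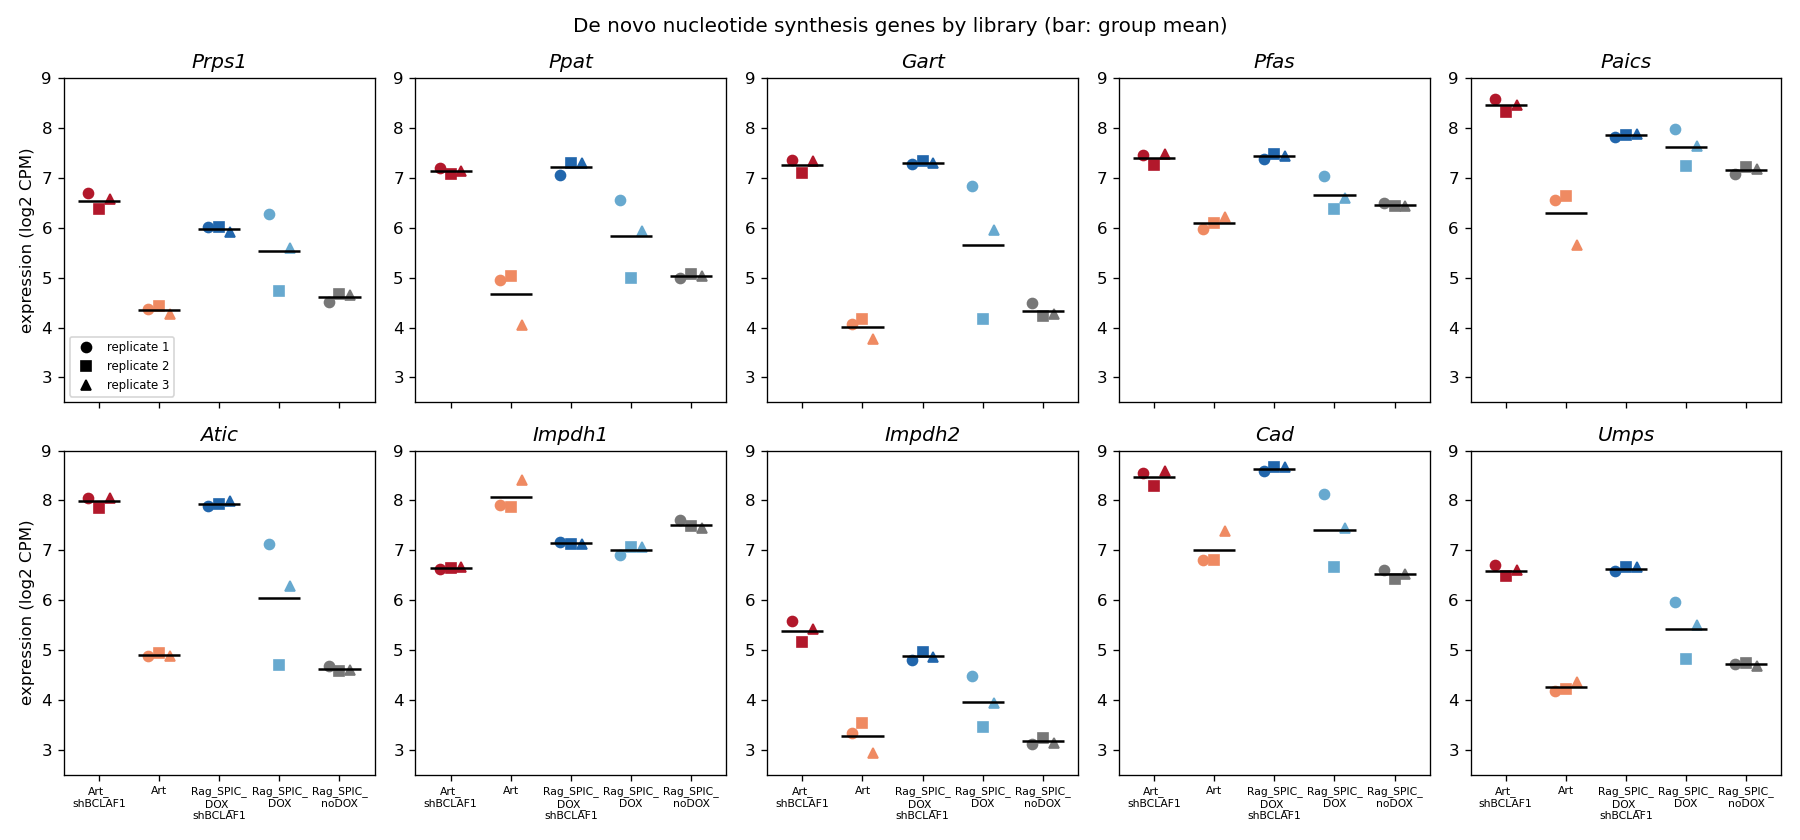
Level of each of the 10 genes in each of the 15 libraries, in log2 CPM (vertical axis), by group; symbols mark the replicate and bars the group mean of 3 libraries. Art_shBCLAF1 and Rag_SPIC_DOX_shBCLAF1 are high for 9 genes, Impdh1 is lowest in Art_shBCLAF1 and highest in Art, and the Rag_SPIC_DOX points are spread with replicate 2 low.

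In Art -/- cells 9 of the 10 genes rose under the hairpin label, and Impdh1 fell. With limma and Benjamini-Hochberg adjustment over all 11551 genes, all 10 genes differed between Art_shBCLAF1 and Art at an adjusted p below 0.05, 9 of them higher and Impdh1 lower. Of all genes tested, 49.0% passed in this comparison, 25.0% as higher and 24.1% as lower. The groups did not overlap for any of the 10 genes, against 65.6% of all genes, and the median of the 10 log2 fold changes was 2.18 against 0.05 over all genes.

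At the entry to the purine route, Prps1 (ENSMUSG00000031432), the maker of PRPP, was at 6.70, 6.38 and 6.58 log2 CPM in Art_shBCLAF1 and at 4.38, 4.43 and 4.27 in Art. Ppat, the amidotransferase of the committed step, was at 7.20, 7.08 and 7.15 log2 CPM in Art_shBCLAF1 and at 4.95, 5.04 and 4.05 in Art. Both genes were several-fold higher in every Art_shBCLAF1 library than in any Art library. Prps1 rose 4.58-fold (log2 fold change 2.20, SE 0.13, limma adjusted p 0.000139) and Ppat rose 5.52-fold (2.47, SE 0.27, limma adjusted p 0.000823). Coasy, which carries the same symbol in the tables, was at 5.65 ± 0.03 log2 CPM in Art_shBCLAF1 and 5.55 ± 0.28 in Art (SD, n = 3 each), and passed in none of the 4 comparisons by limma here, although each of the authors' 4 deposited tables lists it.

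Gart, which catalyses several early ring steps in a single protein, showed the largest rise of the 10. It was at 7.37, 7.11 and 7.34 log2 CPM in Art_shBCLAF1 and at 4.08, 4.17 and 3.77 in Art, a 9.58-fold difference (log2 fold change 3.26, SE 0.15, limma adjusted p 8e-05). Atic, which closes the ring to IMP, followed with 8.05, 7.84 and 8.04 log2 CPM in Art_shBCLAF1 and 4.87, 4.93 and 4.88 in Art. Its change was 8.49-fold (log2 fold change 3.09, SE 0.11, limma adjusted p 5.27e-05). Paics, a middle-step enzyme, was at 8.58, 8.32 and 8.47 log2 CPM in Art_shBCLAF1 and at 6.57, 6.64 and 5.66 in Art (4.50-fold, limma adjusted p 0.00133). Art replicate 3 was the lowest library for Paics and for Ppat, by 0.94 log2 units below the mean of the other Art libraries in each case. Pfas, the glutamine-using enzyme before Paics, changed least of the purine enzymes that rose, with 7.46, 7.27 and 7.49 log2 CPM in Art_shBCLAF1 and 5.97, 6.09 and 6.21 in Art (2.49-fold, limma adjusted p 0.000495).

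The IMP dehydrogenases, which share a reaction, went opposite ways. Impdh2 was at 5.59, 5.16 and 5.43 log2 CPM in Art_shBCLAF1 and at 3.33, 3.54 and 2.94 in Art, and rose 4.37-fold (log2 fold change 2.13, SE 0.21, limma adjusted p 0.000536). Impdh1 was at 6.62, 6.64 and 6.67 log2 CPM in Art_shBCLAF1 and at 7.91, 7.87 and 8.42 in Art, a ratio of 0.372 (log2 fold change -1.43, SE 0.17, limma adjusted p 0.00112). Neither pair of groups overlapped. Impdh2 has a processed pseudogene copy, Impdh2-ps, that matches 1545 bases of its transcript at 99.7% identity, so its counts are uncertain to the extent that reads were shared.

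Both pyrimidine genes rose. Cad was at 8.55, 8.29 and 8.59 log2 CPM in Art_shBCLAF1 and at 6.81, 6.80 and 7.38 in Art (2.79-fold, log2 fold change 1.48, SE 0.19, limma adjusted p 0.00152). Umps was at 6.71, 6.48 and 6.60 log2 CPM in Art_shBCLAF1 and at 4.18, 4.21 and 4.36 in Art (5.09-fold, log2 fold change 2.35, SE 0.12, limma adjusted p 9.87e-05). The end of the pyrimidine route thus differed more than its start in fold terms, a contrast between genes that was not tested. All 10 calls held without any single library and under each of the other settings tried.

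**Figure D2:**
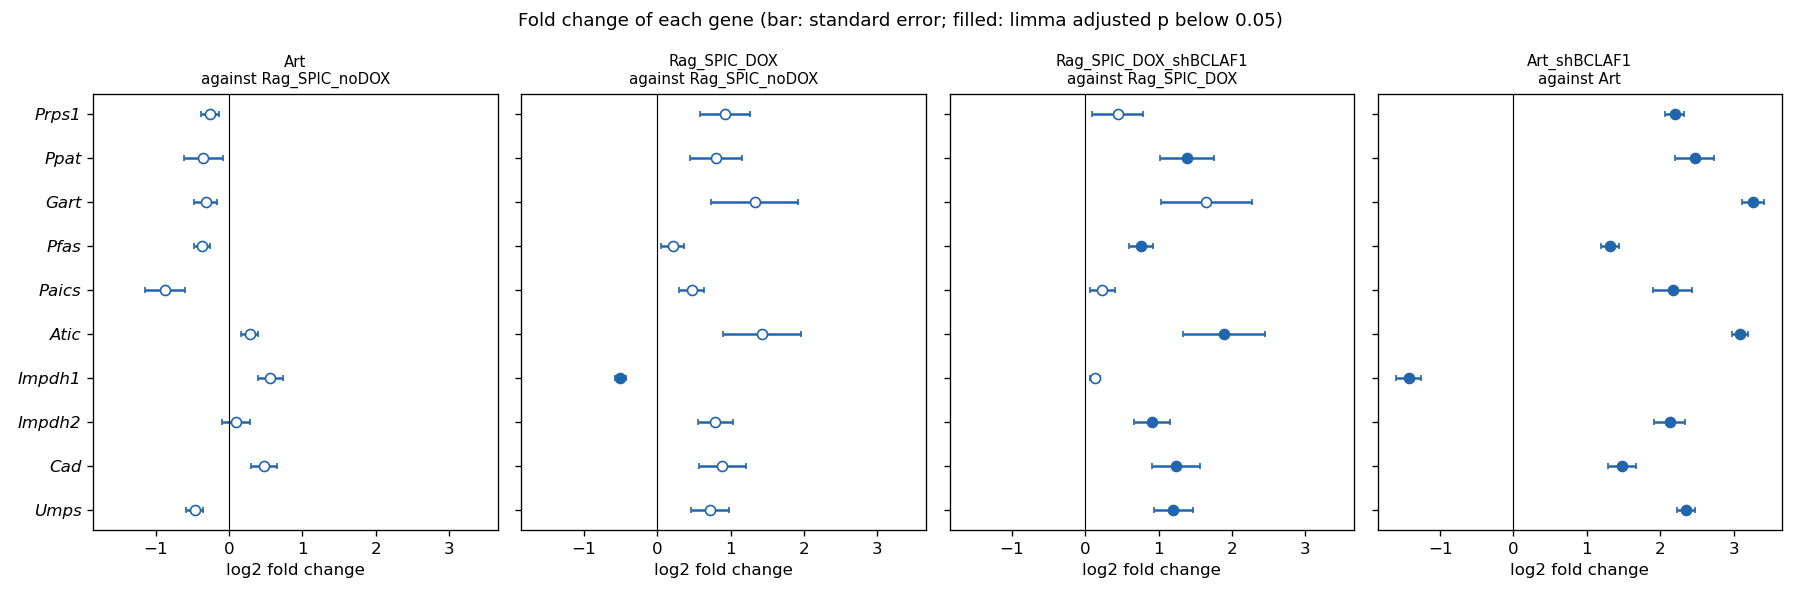
Log2 fold change of each gene (horizontal axis) in the 4 comparisons, with bars of 1 standard error; filled points have a limma adjusted p below 0.05, and each comparison uses 3 libraries a group. All 10 points are filled for Art_shBCLAF1 against Art, 6 for Rag_SPIC_DOX_shBCLAF1 against Rag_SPIC_DOX, only Impdh1 for Rag_SPIC_DOX against Rag_SPIC_noDOX and none for Art against Rag_SPIC_noDOX.

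In Rag -/- cells carrying SPIC and doxycycline, 6 of the 10 genes were higher under the hairpin label and none was lower at a limma adjusted p below 0.05. Of all genes tested, 53.6% passed and 28.5% passed as higher. The share of the 10 that passed was close to that of all genes. The groups did not overlap for 8 genes, all higher in Rag_SPIC_DOX_shBCLAF1, against 66.1% of all genes in either direction and 35.5% as higher. The median of the 10 log2 fold changes was 1.06, against 0.05 over all genes.

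The genes that passed were Ppat, Pfas, Atic, Impdh2, Cad and Umps. Umps was at 6.58, 6.66 and 6.66 log2 CPM in Rag_SPIC_DOX_shBCLAF1 and at 5.97, 4.81 and 5.51 in Rag_SPIC_DOX (log2 fold change 1.20, SE 0.27, limma adjusted p 0.0107). Pfas was at 7.38, 7.49 and 7.45 log2 CPM in Rag_SPIC_DOX_shBCLAF1 and at 7.05, 6.37 and 6.61 in Rag_SPIC_DOX (0.76, SE 0.16, limma adjusted p 0.00960). In both genes the libraries labelled shBCLAF1 were tightly grouped and the Rag_SPIC_DOX libraries were not. Cad was at 8.59, 8.67 and 8.67 log2 CPM in Rag_SPIC_DOX_shBCLAF1 and at 8.12, 6.66 and 7.45 in Rag_SPIC_DOX (1.24, SE 0.33, limma adjusted p 0.0210). Ppat was at 7.06, 7.30 and 7.30 log2 CPM in Rag_SPIC_DOX_shBCLAF1 and at 6.57, 4.99 and 5.93 in Rag_SPIC_DOX (1.39, SE 0.37, limma adjusted p 0.0194). In these 2 genes as well every Rag_SPIC_DOX_shBCLAF1 library was above every Rag_SPIC_DOX library. Atic was at 7.89, 7.92 and 7.99 log2 CPM in Rag_SPIC_DOX_shBCLAF1 and at 7.12, 4.70 and 6.29 in Rag_SPIC_DOX (1.89, SE 0.56, limma adjusted p 0.0276). Impdh2 was at 4.80, 4.95 and 4.86 log2 CPM in Rag_SPIC_DOX_shBCLAF1 and at 4.48, 3.46 and 3.94 in Rag_SPIC_DOX (0.91, SE 0.24, limma adjusted p 0.0199).

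The other 4 genes did not pass. Gart, with 7.29, 7.35 and 7.30 log2 CPM in Rag_SPIC_DOX_shBCLAF1 and 6.85, 4.17 and 5.95 in Rag_SPIC_DOX, had a log2 fold change of 1.65 but the widest spread (SE 0.62, limma adjusted p 0.0597). Paics was at 7.82, 7.87 and 7.89 log2 CPM in Rag_SPIC_DOX_shBCLAF1 and at 7.98, 7.25 and 7.65 in Rag_SPIC_DOX, so that the groups overlapped. Prps1 also overlapped, with 6.01, 6.01 and 5.91 log2 CPM in Rag_SPIC_DOX_shBCLAF1 and 6.28, 4.74 and 5.60 in Rag_SPIC_DOX. In both, Rag_SPIC_DOX replicate 1 alone exceeded all 3 libraries labelled shBCLAF1. Impdh1 was at 7.17, 7.13 and 7.13 log2 CPM in Rag_SPIC_DOX_shBCLAF1 and at 6.90, 7.07 and 7.06 in Rag_SPIC_DOX (log2 fold change 0.13, SE 0.07, limma adjusted p 0.134).

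The number that passed depended on single libraries. It was 9 without Rag_SPIC_DOX replicate 1 (against 65.6% of all genes), 7 without replicate 2 (56.2%) and 2 without replicate 3 (37.6%). It was 2 without Rag_SPIC_DOX_shBCLAF1 replicate 1, 2 or 3, against 36.5%, 34.2% and 35.3% of all genes. Umps and Pfas passed in all 6 of these fits. The authors' deposited table for this pair lists 9 of the 10 genes, all except Impdh1, as higher in Rag_SPIC_DOX_shBCLAF1. The 4 deposited tables hold 33556 rows over 11551 genes, so a listing is common. The share of all genes that this table lists was not counted.

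The hairpin-label differences in the 2 lines were compared directly with an interaction term over 12 libraries. The difference was larger in Art -/- than in Rag_SPIC_DOX cells for Paics (by 1.94 log2 units, SE 0.35, limma adjusted p 0.00211), Prps1 (1.76, SE 0.41, limma adjusted p 0.00841), Impdh2 (1.22, SE 0.34, limma adjusted p 0.0202) and Umps (1.14, SE 0.32, limma adjusted p 0.0198). Impdh1 differed the other way, by -1.56 (SE 0.19, limma adjusted p 0.000226), being lower under the label in Art -/- cells and not in Rag -/- cells. These 5 of 10 genes stand against 31.3% of all genes. The interaction also takes in differences between the groups without hairpin. Mean log2 CPM in Art and Rag_SPIC_DOX was 6.29 and 7.63 for Paics, 4.36 and 5.54 for Prps1, and 3.27 and 3.96 for Impdh2. It was 4.25 and 5.43 for Umps and 8.07 and 7.01 for Impdh1. For Cad the interaction was 0.25 (SE 0.42, limma adjusted p 0.688). Ppat, Gart, Pfas and Atic had interactions between 0.56 and 1.61 that did not pass. Paics, Prps1 and Impdh1 passed in all 12 fits that left out a library, and Umps and Impdh2 in 11 of 12. The count was 9 without Rag_SPIC_DOX replicate 2, where 35.3% of all genes passed. It was 3 without Art_shBCLAF1 replicate 1, a fit whose share of all genes is not given here, so that count has no background.

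With doxycycline, which switches on the SPIC construct, Impdh1 fell, while the means of the other 9 genes were higher by amounts that did not pass the test. Rag_SPIC_DOX and Rag_SPIC_noDOX differed at a limma adjusted p below 0.05 in 1 of 10 genes, against 11.8% of all genes, which is no more than the background share. This comparison shares the Rag_SPIC_DOX libraries with the preceding pair. Impdh1 was at 6.90, 7.07 and 7.06 log2 CPM in Rag_SPIC_DOX and at 7.61, 7.48 and 7.44 in Rag_SPIC_noDOX, a ratio of 0.708 (log2 fold change -0.50, SE 0.08, limma adjusted p 0.0151). The adjusted p of Impdh1 in limma was 0.0128 without Rag_SPIC_DOX replicate 1 and 0.00129 without replicate 2. It was 0.0779 without Rag_SPIC_DOX replicate 3, and 0.0919, 0.0531 and 0.0908 without Rag_SPIC_noDOX replicate 1, 2 or 3, so the call did not hold in these 4 fits.

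The Rag_SPIC_noDOX libraries were closely alike for the other genes. Prps1 was at 4.52, 4.67 and 4.65 log2 CPM there, Ppat at 4.99, 5.07 and 5.03, and Gart at 4.49, 4.23 and 4.27. Pfas was at 6.51, 6.43 and 6.44 log2 CPM in Rag_SPIC_noDOX, Paics at 7.09, 7.22 and 7.18, and Atic at 4.68, 4.57 and 4.59. Impdh2 was at 3.12, 3.24 and 3.14 log2 CPM in Rag_SPIC_noDOX, Cad at 6.61, 6.43 and 6.53, and Umps at 4.72, 4.74 and 4.68. Set beside the Rag_SPIC_DOX values given above, the groups did not overlap for 7 genes, 6 of them higher with doxycycline (Prps1, Paics, Atic, Impdh2, Cad and Umps), against 40.7% of all genes. The log2 fold changes of the 9 genes ran between 0.21 for Pfas (SE 0.16) and 1.43 for Atic (SE 0.53), with limma adjusted p between 0.0716 for Impdh2 and 0.367 for Pfas.

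The spread of the Rag_SPIC_DOX libraries set these errors. Replicate 1 was above replicate 3 and replicate 3 above replicate 2 in 9 of 10 genes, an order found in 33.5% of all genes. Impdh1 had the reverse order, found in 30.2%, but its replicates 2 and 3 were nearly equal, at 7.07 and 7.06 log2 CPM. The range across the 3 libraries was 2.68 log2 units for Gart and 2.42 for Atic, against a median of 0.34 over all genes and 0.17 for Impdh1. In Rag_SPIC_DOX replicate 2, Gart at 4.17 and Atic at 4.70 log2 CPM were close to their values in Rag_SPIC_noDOX, although Spic was at 4.59 log2 CPM there and at 3.72 and 4.31 in replicates 1 and 3. Without replicate 2, all 10 genes passed in limma, 9 higher and Impdh1 lower, against 39.6% of all genes, with Gart at a log2 fold change of 2.07 (SE 0.21) and Atic at 2.09 (SE 0.19). Without replicate 3 none passed, against 0.502% of all genes, and 2 had an unadjusted p below 0.05, against 22.3% of all genes. The authors' deposited table for this pair lists all 10 genes as changed, 9 higher in Rag_SPIC_DOX and Impdh1 lower. The share of all genes that this table lists was not counted, and a listing is common.

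Without doxycycline or hairpin, the 2 lines were set against each other as Art and Rag_SPIC_noDOX, a comparison that shares its libraries with those above. None of the 10 genes passed in limma, against 5.14% of all genes. At an unadjusted p below 0.05 there were 6, against 21.7% of all genes, and voom weights in limma also gave 0. The groups did not overlap for 8 genes, 3 higher and 5 lower in Art, against 37.9% of all genes. The largest difference was that of Paics, at 6.57, 6.64 and 5.66 log2 CPM in Art and 7.09, 7.22 and 7.18 in Rag_SPIC_noDOX (log2 fold change -0.87, SE 0.27, limma adjusted p 0.131). Impdh1 and Cad were the highest in the other direction, with log2 fold changes of 0.56 (SE 0.17) and 0.48 (SE 0.18). Without Art replicate 3, the shallow library, 7 genes passed against 47.4% of all genes. Cad at 0.29, Atic at 0.28 and Impdh1 at 0.38 were then higher in Art, and Paics at -0.56, Umps at -0.52, Pfas at -0.43 and Prps1 at -0.21 were lower. The authors' deposited table for this pair lists 5 of the 10 genes, Cad and Impdh1 as higher in Art and Umps, Paics and Pfas as lower. The share of all genes in this table was likewise not counted.

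The difference between the IMP dehydrogenase genes within a library puts both levels in a single value. Their means moved in opposite directions in Art_shBCLAF1 against Art and in Rag_SPIC_DOX against Rag_SPIC_noDOX. Both means were higher in Rag_SPIC_DOX_shBCLAF1 than in Rag_SPIC_DOX (log2 fold change 0.13 for Impdh1 and 0.91 for Impdh2). Both were also higher in Art than in Rag_SPIC_noDOX (0.56 and 0.10, neither passing in limma). Impdh1 minus Impdh2, in log2 CPM, was 1.02, 1.48 and 1.23 in Art_shBCLAF1 against 4.59, 4.33 and 5.49 in Art. It was 2.36, 2.17 and 2.27 in Rag_SPIC_DOX_shBCLAF1, against 2.41, 3.61 and 3.12 in Rag_SPIC_DOX and 4.49, 4.24 and 4.30 in Rag_SPIC_noDOX. Impdh1 was thus the higher of the pair in all 15 libraries, by the least in Art_shBCLAF1, and the Art and Rag_SPIC_noDOX ranges overlapped. As a difference between genes, with Impdh2 reads possibly shared with Impdh2-ps, it is read across groups and not as a ratio of molecules.

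**Figure D3:**
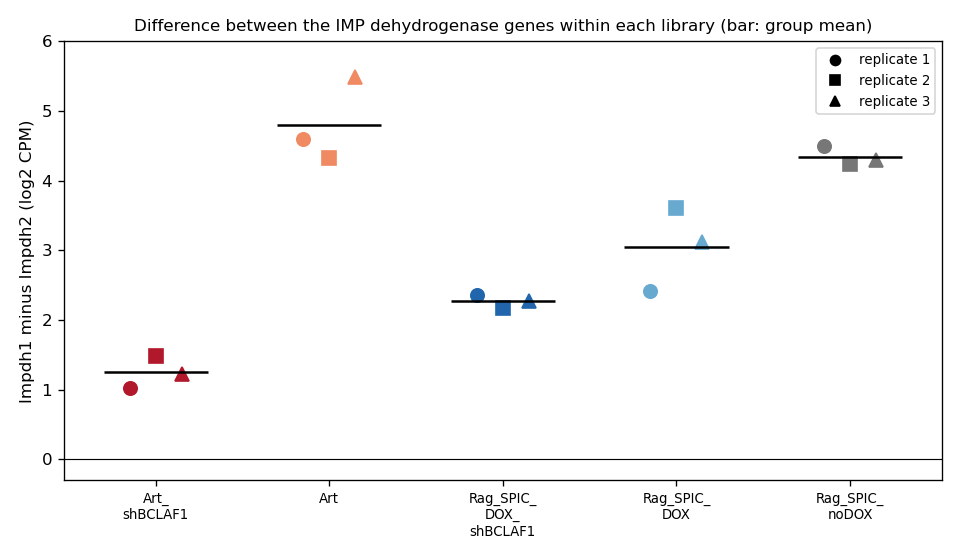
Impdh1 minus Impdh2 in log2 CPM (vertical axis) in each library by group; bars are means of 3 libraries. The 3 Art_shBCLAF1 libraries lie between 1.02 and 1.48, and the Art libraries between 4.33 and 5.49.

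Levels were also set per kilobase of exon, from GENCODE M21 gene models, to compare genes with one another. In Art_shBCLAF1 the highest was Paics at 6.81 log2 CPM per kilobase, then Prps1 at 5.56 and Cad at 5.45, and the lowest was Impdh2 at 3.77. In Art the highest was Impdh1 at 6.35 log2 CPM per kilobase, then Paics at 4.64 and Cad at 3.96, and the lowest were Gart and Impdh2, both at 1.65. In Rag_SPIC_DOX_shBCLAF1 the order opened with Paics at 6.21 and Cad at 5.61 log2 CPM per kilobase, and Impdh1 came next at 5.42. In Rag_SPIC_DOX it opened with Paics at 5.98 and Impdh1 at 5.29, and in Rag_SPIC_noDOX with Impdh1 at 5.79 and Paics at 5.51. Impdh2 had the lowest mean in every group, level with Gart in Art, but was below all other genes without overlap only in the groups labelled shBCLAF1. Its range overlapped those of Gart, Atic and Ppat in Art and in Rag_SPIC_DOX, and that of Atic in Rag_SPIC_noDOX. The order depends on the exon lengths used, and other lengths were not tried. The level of Impdh2 is also uncertain to the extent that reads were shared with Impdh2-ps. Atic, Impdh1 and Gart in Art_shBCLAF1, between 4.91 and 4.98, lay within their spread of each other.

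The rest of nucleotide metabolism was counted in lists written from general knowledge, but with earlier results of these data known. The counts are to be read beside the shares of all genes. Those were 25.0% higher and 24.1% lower in Art_shBCLAF1 against Art, and 28.5% higher and 25.1% lower in Rag_SPIC_DOX_shBCLAF1 against Rag_SPIC_DOX. Among 7 other genes of purine synthesis, 4 rose and 1 fell in Art_shBCLAF1 against Art by limma. Gmps, which makes GMP after the IMP dehydrogenases, rose by 1.82 log2 units and Adsl, a lyase used in both IMP and AMP synthesis, by 1.10, while Adssl1, an adenylosuccinate synthase, fell by 1.21. In Rag_SPIC_DOX_shBCLAF1 against Rag_SPIC_DOX, 4 rose and none fell, with Adsl at 0.95 and Gmps at 0.67. Prps2, the relative of Prps1, passed in neither, at 0.22 and -0.23. Among 6 other pyrimidine genes, 4 rose in Art_shBCLAF1, led by the nucleoside diphosphate kinase gene Nme2 at 3.32 and the CTP synthase gene Ctps at 2.96. In Rag_SPIC_DOX_shBCLAF1, 3 rose, led by Nme1 at 1.82, and Ctps2 fell by 0.47. Nme1 and Nme2 are related neighbouring genes, and whether they share reads was not tested.

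Of 8 measured folate-pathway genes, which carry carbon units to GART and ATIC, 6 rose in Art_shBCLAF1 against Art, with Mthfd1l at 4.17 and Mthfd2 at 3.71 log2 units, and none fell. In Rag_SPIC_DOX_shBCLAF1, 4 rose, with Mthfd1 at 1.65 and the serine hydroxymethyltransferase gene Shmt1 at 1.37. The summed level of the 8 was 1860, 1530 and 1770 CPM in Art_shBCLAF1 against 187, 189 and 232 CPM in Art. Of 9 genes of deoxynucleotide supply, 7 rose in Art_shBCLAF1, led by Dctd at 3.37 and the dUTPase gene Dut at 3.05, and Rrm2b, a ribonucleotide reductase subunit induced by p53, fell by 0.66. In Rag_SPIC_DOX_shBCLAF1, 4 rose, led by Dctd at 2.93.

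Of 13 measured salvage genes, 8 rose and 1 fell in Art_shBCLAF1, with Pnp2, a nucleoside phosphorylase gene, at 3.35 and adenosine kinase, Adk, at 2.92. In Rag_SPIC_DOX_shBCLAF1, 4 rose, led by Uck2 at 1.37, and 3 fell, among them the deoxycytidine kinase gene Dck at -0.52, which is close to the shares of all genes in both directions. Of 8 measured breakdown genes, 5 rose in each comparison and none fell, with the guanine deaminase gene Gda at 5.38 in Art_shBCLAF1 against Art and 4.01 in Rag_SPIC_DOX_shBCLAF1 against Rag_SPIC_DOX. In Rag_SPIC_DOX against Rag_SPIC_noDOX, where 3.16% of all genes rose and 8.67% fell, no gene of these lists rose by limma, and Adssl1 (-0.51), Samhd1 (-0.50), Tk2 (-0.52) and Xdh (-0.76) fell. In Art against Rag_SPIC_noDOX, where 2.58% of all genes rose and 2.56% fell, Mthfd1l (-0.92) and Nt5e (-2.38) fell and none rose.

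Myc itself was at 8.89, 8.68 and 8.78 log2 CPM in Art_shBCLAF1 against 3.87, 4.08 and 4.26 in Art (log2 fold change 4.72, SE 0.14, limma adjusted p 3.52e-05). It was at 9.13, 9.20 and 9.29 log2 CPM in Rag_SPIC_DOX_shBCLAF1, against 8.06, 3.76 and 6.83 in Rag_SPIC_DOX and 5.77, 5.41 and 5.60 in Rag_SPIC_noDOX. The order of the Rag_SPIC_DOX libraries was that of the 9 genes, and the reverse of the order of Spic. Myc was lower in Art than in Rag_SPIC_noDOX by 1.53 log2 units (SE 0.16, limma adjusted p 0.0112). The mean of the 9 genes was also lower there, at 4.84 to 5.09 in Art and 5.17 to 5.19 in Rag_SPIC_noDOX. None of the 9 passed in limma, however, and Cad, Atic and Impdh2 were higher in Art. In Rag_SPIC_DOX replicate 2, Myc at 3.76 log2 CPM was below every Rag_SPIC_noDOX library. The mean of the 9 genes in that replicate was 5.24, above every Rag_SPIC_noDOX library. A link between Myc and the 9 genes was not tested.

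**Figure D4:**
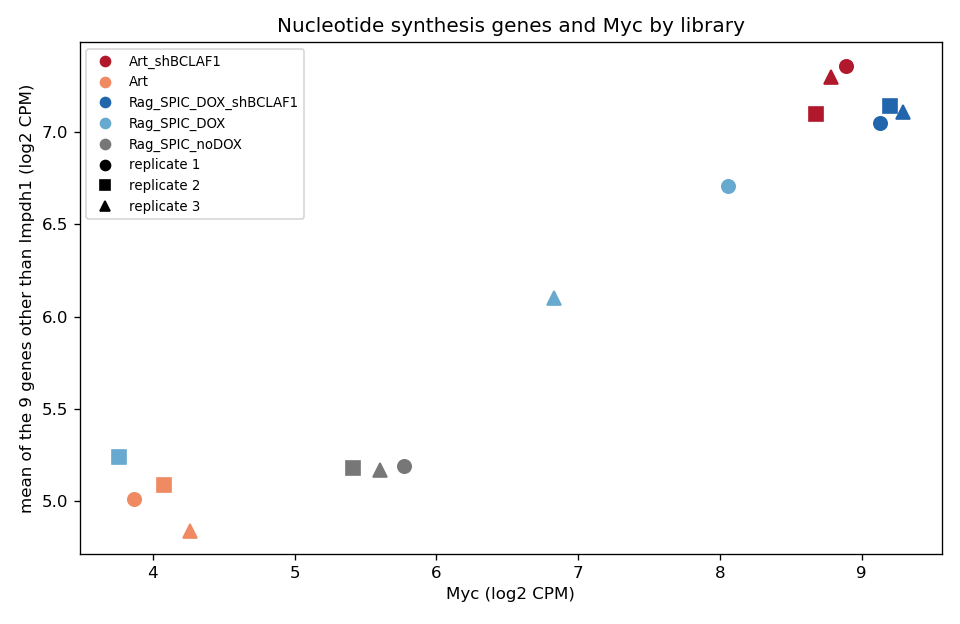
Mean log2 CPM of the 9 genes other than Impdh1 (vertical axis) against log2 CPM of Myc (horizontal axis), 1 point a library, colours for groups and symbols for replicates. The 6 libraries labelled shBCLAF1 lie together at the top right, Rag_SPIC_DOX replicates 1 and 3 lie between, and Rag_SPIC_DOX replicate 2 lies with the Art libraries at the lower left.

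Likeness of pattern was measured by Pearson's r over the 15 libraries, as a description that the group differences dominate. Of the 36 pairs of genes without Impdh1, r lay between 0.70 and 0.99, with a median of 0.95, and the 9 pairs with Impdh1 lay between -0.97 and -0.61. Paics had the lowest likeness to the mean of the 10 among the other 9 genes, at 0.88, or 0.92 without Art replicate 3. The 8 genes outside the set nearest to that mean were Ddx21 (0.998), an RNA helicase gene of the nucleolus, then Hspd1, Ptges3, Map6, Idh3a, Nolc1, Dctpp1 and C1qbp (0.995). Dctpp1, a pyrophosphatase of deoxynucleotides, was the member of nucleotide metabolism among them. Myc came at place 330, with 0.965. The ranking depended on Art replicate 3: without it, Ddx21 and Hspd1 came at places 5 and 6, the other 6 genes at places 13 to 19, and Myc at place 758 with 0.961.

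Ppat and Paics stand head to head, with RefSeq starts 276 bases apart, and their gene models share 272 bases on opposite strands. Gart and Umps each overlap an antisense gene, Gm15964 by 291 bases and Gm15829 by 215 bases of matching sequence. Whether reads were counted by strand is unstated here, so these shared stretches are uncertain. Despite their shared stretch, Ppat and Paics differed in Rag_SPIC_DOX_shBCLAF1 against Rag_SPIC_DOX, at 1.39 and 0.23 log2 units, a contrast between genes that was not tested.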

How the data were processed

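The genes and lists were chosen with earlier results of these data known. The authors deposited 4 tables of log2 CPM values for all 15 libraries, with 0.5 added to each read count, and with the authors' own log2 fold changes, p-values and adjusted p-values. The score columns the authors deposited (moderated t, log odds and signed linear fold change, per the file headers) were not used. Each table lists protein-coding genes that passed the authors' adjusted p, the highest being 0.0499, so a gene outside the 11551 passed in none of them and all shares are shares of that union. After 152 duplicate rows were merged, 100.0% of values below 1000 reads returned to whole reads within 0.05. The submitters' processing notes name featureCounts 1.4.5, Subread, limma and edgeR, and the mouse build mm9, without roles. One column name of Art replicate 3 differed by 1 character from its label.

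Each comparison was fitted in limma 3.58.1 (R 4.3.3), with a mean-variance trend, to the 6 libraries of its 2 groups. The interaction used 12 libraries. Tests were two-sided with Benjamini-Hochberg adjustment over 11551 genes, and changed means an adjusted p below 0.05. Those genes had already passed the authors' adjusted p in these same libraries. The adjusted p-values here may therefore be smaller than with adjustment over every gene measured. The authors' deposited fold changes run the other way (Art minus Art_shBCLAF1, for example) and were turned round only in words. The steps were tested on simulated data. A list's named genes are the 2 highest and 2 lowest that passed, or fewer, besides relatives of the 10 enzymes named for comparison. Likeness was ranked over all other genes. Alternatives were median centring, a minimum of 10 reads in 3 libraries, 2 added to each count, voom and array weights, all 15 libraries in a single fit, a replicate block, and each library left out. Effective library sizes of 5.81 to 27.1 M reads limit precision, most in Art replicate 3. Annotation, lengths and promoters came from GENCODE M21 and RefSeq on GRCm38 and not from the build of the files, so no position was read from the files. Transcript copies of at least 200 bases and 95% identity were found with BLAST 2.17.0.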

Additional observations from a re-analysis of the deposited data

Results flagged for a closer look

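The hairpin-label difference was not of one size in the lines for 5 genes, by the limma interaction term over 12 libraries, as the difference in Art -/- cells minus that in Rag_SPIC_DOX cells. It was 1.94 log2 units for Paics, 1.76 for Prps1, 1.22 for Impdh2, 1.14 for Umps and -1.56 for Impdh1. For Paics and Prps1 the Rag_SPIC_DOX_shBCLAF1 and Rag_SPIC_DOX libraries overlapped, and for Impdh1 the sign differed between the lines. Dixon's test was not applied, because each group holds 3 libraries. The lines also differed in doxycycline, the SPIC construct and genotype, which cannot be told apart in this design.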

How the results depend on the processing

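The counts of the 10 genes that passed in limma depended on the libraries used. They are to be read beside the all-gene counts in the next paragraph. Array weights called most genes in every comparison and in the interaction. Where no all-gene count is given, the count of the 10 cannot be set against the background. This holds for most single fits of all 15 libraries and for the unadjusted count of 9 below. For Art against Rag_SPIC_noDOX the count was 0, but 2 with all 15 libraries in a single fit, 8 with array weights, and 0 to 7 when a library was left out. For Rag_SPIC_DOX against Rag_SPIC_noDOX it was 1, but 5 with all 15 libraries in a single fit, 10 with array weights, 0 with the replicate block (9 at an unadjusted p below 0.05), and 0 to 10 when a library was left out. For Rag_SPIC_DOX_shBCLAF1 against Rag_SPIC_DOX it was 6, with 7 in a single fit of all 15 libraries, 10 with array weights and 2 to 9 when a library was left out. For Art_shBCLAF1 against Art it was 10 throughout. For the interaction it was 5, with 6 in a single fit of all 15 libraries, 10 with array weights and 3 to 9 when a library was left out. The sign turned for 2 values that were not called: Impdh2 in Art against Rag_SPIC_noDOX ranged from -0.04 without Art replicate 2 (limma adjusted p 0.916) to 0.27 without Art replicate 3, and the Cad interaction from -0.11 without Rag_SPIC_DOX replicate 1 (limma adjusted p 0.827) to 0.62 without Rag_SPIC_DOX replicate 2. The estimation of array weights stopped without converging in the 3 fits that include Rag_SPIC_DOX. Over all 15 libraries, where it did not converge either, the weight was 1320 for Rag_SPIC_DOX replicate 3 and 0.122 and 0.117 for the other libraries of that group. Same-numbered libraries did not deviate together (correlations of deviations from -0.23 to 0.20), so the numbers were not taken as pairs, and the cause of the other shifts was not tested.

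Over all genes, 594 passed in Art against Rag_SPIC_noDOX, but 5473 without Art replicate 3, 1957 with all 15 libraries, 6547 with array weights and 0 with the replicate block (1902 at an unadjusted p below 0.05). For Rag_SPIC_DOX against Rag_SPIC_noDOX, 1367 passed, but 150 with the replicate block, 8589 with array weights, 4569 without Rag_SPIC_DOX replicate 2 and 12 to 401 without replicate 3 or a Rag_SPIC_noDOX library. Array weights gave 10078 in place of 6186 for Rag_SPIC_DOX_shBCLAF1 against Rag_SPIC_DOX, 9839 in place of 5664 for Art_shBCLAF1 against Art and 9159 in place of 3621 for the interaction. Centring libraries on their medians moved the all-gene median of Art_shBCLAF1 against Art from 0.05 to -0.18, and that of the 10 genes from 2.18 to 1.95. It turned the split of calls there to 2155 higher and 3599 lower, from 2884 and 2780.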

Other observations

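Summed levels of the related routes are given for each library, as values with no test. Salvage genes summed to 1430, 1230 and 1340 CPM in Art_shBCLAF1 against 682, 709 and 704 CPM in Art, and genes of deoxynucleotide supply to 1490, 1310 and 1370 CPM in Art_shBCLAF1 against 489, 506 and 517 CPM in Art. In Rag_SPIC_DOX the folate genes summed to 762, 219 and 456 CPM, against 255, 233 and 241 CPM in Rag_SPIC_noDOX, with replicate 2 the lowest library as it was for the enzymes. Genes of nucleotide breakdown summed to 382 to 404 CPM in Art_shBCLAF1 and 299 to 345 CPM in Art, and 374 to 375 CPM in Rag_SPIC_DOX_shBCLAF1, 289 to 309 CPM in Rag_SPIC_DOX and 302 to 317 CPM in Rag_SPIC_noDOX.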
